A study of Mus musculus with 42 samples.

Results

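The galectins described here are 7 genes, Lgals1, Lgals2, Lgals3, Lgals4, Lgals7, Lgals8 and Lgals9, in mouse skin and skin tumours, out of 14442 genes named on the arrays. Their probes were found by gene symbol, which gave 7 of the 21997 probes of one array design, 1 for each gene, and 11 of the 36924 probes of a second design. The family was chosen from earlier results of these same data, in which Lgals2 had differed between low-risk and high-risk papillomas and Lgals1 between carcinomas and low-risk papillomas. Those differences are therefore given as descriptions, with no test, and so are the other differences of Lgals2 that rest on the same low-risk papillomas.

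Galectins are small proteins that bind beta-galactoside sugars on glycoproteins, and they act both inside cells and, after release by a route that uses no signal peptide, at the cell surface. Prototype galectins carry 1 sugar-binding domain and can pair up, tandem-repeat galectins join a pair of such domains in 1 chain, and galectin-3 alone links its domain to a long tail through which it assembles into larger complexes. In skin, galectin-7 is known as a protein of stratified epithelium and galectin-3 as an abundant keratinocyte galectin, galectin-1 is made by stromal and immune cells, and galectin-2 and galectin-4 are best known from the gut.

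The series compared normal mouse skin, benign papillomas labelled low-risk or high-risk, and squamous cell carcinomas, each RNA hybridised on a 2-colour oligonucleotide array against a universal mouse reference RNA. All tumours, the papillomas of unknown risk included, came from female mice of the Sencar strain that were initiated at 7 to 8 weeks of age and given DMBA/TPA, a carcinogen followed by a tumour promoter. Normal skin came from adult mice with no treatment, and the labels give no strain, sex or age in weeks for it, so treatment and any difference in strain, sex or age cannot be told apart between skin and tumours. Whole tissue was used, so a change in the share of a cell type and a change in its RNA content cannot be told apart.

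The first design carried 32 arrays, which gave 31 replicates: normal skin had 6, carcinoma 6, low-risk papilloma 9 and high-risk papilloma 10. A pair of arrays held 1 low-risk extract with the dyes swapped and was averaged. A further 10 papillomas with no risk label lay on the second design and entered no comparison. Values are log2 levels of sample over reference, where 0 means as much as in the reference and 1 unit is a doubling, and each array was centred on its median. The direction is likely rather than stated: on the deposited scale 8 suprabasal keratinocyte markers had a median below 0 on 30 of the 31 arrays with the sample in Cy3, and at 1.10 on the swapped array. Intestinal markers had a median below 0 on 5 of those 31 arrays, and at -0.94 on the swapped array. On the second design the keratinocyte median was below 0 on 10 of 10 arrays, but the intestinal median was below 0 on 9 of 10. The direction there rests on the keratinocyte markers alone. A level shows a gene against its own reference signal, so levels of different genes or probes are not set against each other.

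The first-design arrays held 16286 to 21494 values, and the number of arrays limits the precision. By the pattern of empty probes they were divided into 5 array sets, A to E, a number that was chosen and not found in the data. The sets cut across some groups only: set B held only low-risk papillomas, set E only high-risk papillomas, and all carcinomas lay in sets C and D. The mean of 5 of the 7 basal keratinocyte markers lay above the reference in all 31 replicates, between 0.76 and 3.23. Normal skin 1 and carcinoma 6 had nearly the same values (r = 0.984 over 16718 probes). Some high-risk and low-risk papillomas share a tumour code, and nothing else says that replicates came from separate mice, so p-values measure the spread between these samples.

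Lgals2, the gene of the prototype galectin-2, stood highest in low-risk papillomas. The 9 low-risk levels ran from 1.45 to 3.79 with a median of 3.38, and the 10 high-risk levels from -0.13 to 3.72 with a median of 0.61. The 6 carcinomas lay between -0.03 and 1.52 with a median of 0.23, and the 6 normal skins between -0.09 and 1.96 with a median of 1.44. Of the high-risk papillomas 7 of 10 lay below every low-risk papilloma, of the carcinomas 5 of 6, and 7 of 9 low-risk papillomas lay above every normal skin.

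The group ranges of Lgals2 overlapped through a few samples. Low-risk papillomas 6 and 9 were at 1.45 and 1.76, within the range of normal skin, while high-risk papilloma 5 was at 3.72, among the highest low-risk levels. High-risk papilloma 3, which shares a tumour code with high-risk papilloma 5, was at 0.85. The swapped array and the other array of the same extract gave 3.41 and 3.36 for this gene, though their r over all probes was only 0.306.

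The mean Lgals2 level was 3.03 ± 0.86 (SD, n = 9) in low-risk papillomas, 1.02 ± 1.13 (SD, n = 10) in high-risk papillomas, 0.47 ± 0.62 (SD, n = 6) in carcinomas and 1.21 ± 0.72 (SD, n = 6) in normal skin. High-risk papillomas differed from low-risk papillomas by -2.0 ± 0.40 (SE) on the log2 scale, which is 4.01-fold lower. Carcinomas differed from them by -2.56 ± 0.46 (SE), or 5.89-fold, and low-risk papillomas lay 1.82 ± 0.46 (SE) above normal skin, or 3.53-fold. The order of the means was carcinoma, high-risk papilloma, normal skin and low-risk papilloma, and the first 3 overlapped widely.

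The array sets moved with part of the Lgals2 pattern. Low-risk papillomas averaged 3.13 in set B and 2.82 in set D, and carcinomas -0.02 in set C and 0.71 in set D. High-risk papillomas averaged 0.30 in set C and 1.24 in set E, and the only one in set D was papilloma 5. With the array set as a block in the fit, the high-risk difference shrank from -2.0 to -0.74 and the carcinoma difference from -2.56 to -1.82, and the difference of low-risk papillomas from normal skin shrank from 1.82 to 0.83. Within set D, the one set that held all 4 groups, carcinomas differed from the 3 low-risk papillomas by -2.11, while high-risk papilloma 5 was 0.90 above them. The part of the array sets in these differences was not tested further. Without normal skin 1 and carcinoma 6, the nearly identical pair, carcinomas differed from low-risk papillomas by -2.46 and low-risk papillomas from normal skin by 1.56.

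Galectin-2 is known from intestinal epithelium, and the mean level of 9 markers of that tissue, all measured, ran from -1.16 to 0.42 in low-risk papillomas, from -0.63 to 0.25 in high-risk papillomas, from -0.18 to 0.13 in carcinomas and from -0.49 to -0.08 in normal skin, ranges that overlapped.

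**Figure D1:**
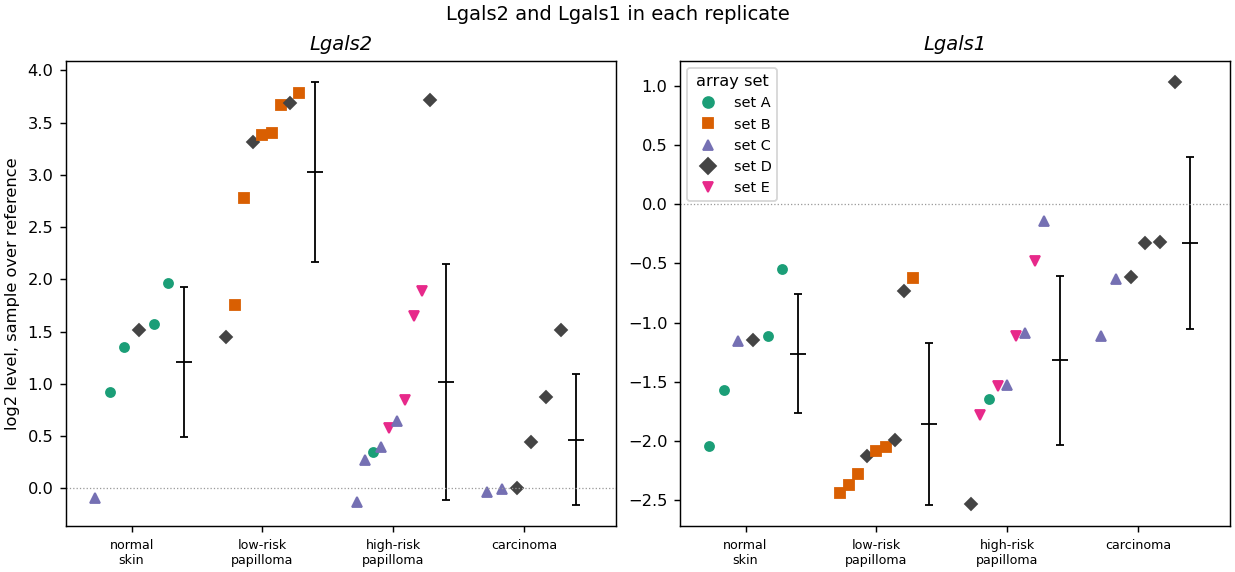
Log2 level of Lgals2 (left) and Lgals1 (right), sample over reference, in each replicate of the 4 groups, ordered by level within a group; colour and shape give the array set, and the bar beside each group is the mean ± SD. Lgals2 in low-risk papillomas ran from 1.45 to 3.79 with high-risk papilloma 5 at 3.72 beside them, and Lgals1 in carcinomas from -1.11 to 1.03, with 4 of 6 above every low-risk papilloma.

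Lgals1, the gene of galectin-1, a prototype galectin of stroma and immune cells, ran the other way between these groups. It lay below the reference in 29 of 30 replicates, and carcinomas were the highest group. The 6 carcinomas were at -1.11, -0.63, -0.61, -0.32, -0.32 and 1.03, the 9 low-risk papillomas ran from -2.44 to -0.63 with a median of -2.09, and the 9 measured high-risk papillomas ran from -2.54 to -0.14 with a median of -1.53. The 6 normal skins ran from -2.05 to -0.55 with a median of -1.15. Above every low-risk papilloma lay 4 of 6 carcinomas, and all 6 lay above the mean of each other group.

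Most low-risk papillomas formed a narrow group in Lgals1, with 7 of the 9 between -2.44 and -2.0. Low-risk papillomas 6 and 9, the ones with low Lgals2, were the exceptions at -0.74 and -0.63. High-risk papilloma 5, the one with high Lgals2, had the lowest Lgals1 of all 30 replicates at -2.54. Carcinoma 3 was the only replicate above 0.

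The mean Lgals1 level was -0.33 ± 0.73 (SD, n = 6) in carcinomas and -1.86 ± 0.68 (SD, n = 9) in low-risk papillomas, a difference of 1.53 ± 0.35 (SE) or 2.89-fold. Without carcinoma 3 this difference was 1.26, and without normal skin 1 and carcinoma 6 it was 1.69. High-risk papillomas averaged -1.32 ± 0.71 (SD, n = 9) and normal skin -1.26 ± 0.50 (SD, n = 6). Carcinomas were 0.99 ± 0.35 (SE) above high-risk papillomas (limma, adjusted p = 0.300) and 0.94 ± 0.38 (SE) above normal skin (limma, adjusted p = 0.296), neither past the threshold of 0.05, and both use the carcinomas that had drawn attention to the gene. Within array set C these differences were 0.05 and 0.29, and within set D, with 1 high-risk papilloma and 1 normal skin, 2.48 and 1.09, and with array weights the one from normal skin passed at 1.18 (limma, adjusted p = 0.00578). In the order of the means, low-risk papilloma, high-risk papilloma and normal skin were neighbours that did not differ beyond their spread.

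Within array set D the 4 carcinomas were 1.56 above the 3 low-risk papillomas, close to the difference over all sets, and with the array set as a block it was 1.27. Markers of macrophages and fibroblasts, cells known to make galectin-1, also had their highest mean level in carcinomas, and so had markers of adipocytes and of intestinal epithelium. Adipocyte markers averaged 0.74 in carcinomas and 0.71 in low-risk papillomas, and intestinal markers -0.02 and -0.28. Those of T cells, neutrophils and endothelium were not highest in carcinomas. T cell markers averaged 0.07 in carcinomas and 0.33 in low-risk papillomas, and neutrophil markers 0.93 and 1.41. Endothelium markers averaged -0.08 in carcinomas and 0.02 in normal skin. The mean of 9 of the 11 macrophage markers ran from -0.62 to 0.63 in carcinomas, from -2.33 to -0.39 in low-risk papillomas, from -1.89 to -0.35 in high-risk papillomas and from -1.27 to -0.50 in normal skin. The mean of 9 fibroblast markers ran from -0.57 to 0.61 in carcinomas, from -1.76 to 0.33 in low-risk papillomas, from -2.01 to 0.10 in high-risk papillomas and from -0.91 to -0.43 in normal skin. Limma called 1 of the 9 macrophage markers and 0 of the 9 fibroblast markers between carcinomas and low-risk papillomas, where 1.12% of all probes were called. The part of any of these cells in the Lgals1 difference was not tested.

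Lgals7, the gene of galectin-7, the prototype galectin of stratified epithelium, showed no group difference past the threshold on its first-design probe. Normal skin ran from -0.76 to 1.05 with a median of 0.45, the 7 measured low-risk papillomas from -0.03 to 1.66 with a median of 0.84, the 7 measured high-risk papillomas from -0.07 to 1.70 with a median of 0.18, and carcinomas from -0.23 to 0.43 with a median of 0.07. All groups overlapped, and the largest difference, of carcinomas from low-risk papillomas, was -0.65 ± 0.32 (SE; limma, adjusted p = 0.322) with a 95% interval from -1.32 to 0.01. The 8 suprabasal keratinocyte markers averaged 0.37 in carcinomas, from 0.01 to 0.66, and 1.38 in low-risk papillomas, from 0.55 to 2.30. A second reading of the gene, on the second design, is given with the papillomas of unknown risk and differs between probes.

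Lgals3, the gene of galectin-3, was above the reference in 31 of 31 replicates, from 0.60 to 3.36. Normal skin ran from 1.21 to 2.27 with a median of 1.89, low-risk papillomas from 0.61 to 2.61 with a median of 1.63, high-risk papillomas from 0.60 to 3.36 with a median of 1.98 and carcinomas from 0.84 to 2.50 with a median of 1.79. The groups lay over each other, with means of 1.93 ± 0.95 (SD, n = 10) in high-risk papillomas, 1.82 ± 0.44 (SD, n = 6) in normal skin, 1.70 ± 0.60 (SD, n = 9) in low-risk papillomas and 1.67 ± 0.69 (SD, n = 6) in carcinomas. None of the neighbours in this order differed beyond their spread. The high-risk minus low-risk difference was 0.23 with a 95% interval from -0.44 to 0.90, and the carcinoma minus normal skin difference was -0.15 with an interval from -0.99 to 0.69.

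The spread of Lgals3 within high-risk papillomas followed the array sets. The 4 in set E ran from 1.99 to 3.36 and averaged 2.75, and the 4 in set C ran from 0.60 to 1.97 and averaged 1.03. These sets also differ in the spread of all their values, with a median SD over the probes of an array of 1.59 in set E and 0.70 in set C. The part of the set in the level was not tested.

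The tandem-repeat galectins showed no group difference past the threshold. Lgals4, known from gut epithelium, was above 0 in all 6 normal skins, all 8 measured low-risk papillomas and all 6 carcinomas, and in 6 of 10 high-risk papillomas. Its levels ran from 0.38 to 1.63 in normal skin, from 0.02 to 1.94 in low-risk papillomas, from -0.32 to 1.52 in high-risk papillomas and from 0.03 to 0.45 in carcinomas. Carcinomas were the tightest group, at 0.21 ± 0.16 (SD, n = 6), in sets C and D, where the median SD over the probes of an array was 0.70 and 1.04, beside 1.57 in set B. Within set D the 4 carcinomas ran from 0.03 to 0.45 and the 3 low-risk papillomas from 0.49 to 1.94. Normal skin 2 and high-risk papilloma 5 of that set were at 1.63 and 1.43. The part of the sets was not tested. All 6 carcinomas lay below the low-risk mean of 0.75, but within the low-risk range. The carcinoma minus low-risk difference was -0.55 ± 0.30 (SE; limma, adjusted p = 0.378).

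Lgals8, the gene of galectin-8, which binds sialylated glycans and damaged endosomes, varied most within low-risk papillomas. They ran from -3.48 to 0.94 with a median of -1.56, high-risk papillomas (n = 8) from -2.83 to -0.15 with a median of -1.50, carcinomas (n = 5) from -1.04 to 0.26 with a median of -0.76, and normal skins from -1.12 to -0.42 with a median of -0.74. The low-risk extremes were papillomas 8 and 9 of set B, whose arrays had an SD over their probes of 1.95 and 1.72. Papilloma 4 of the same set was nearly as low as papilloma 8, at -3.39, with an array SD of 1.23. The part of this array-wide spread was not tested. All 5 measured carcinomas lay above the high-risk mean and 2 above every high-risk papilloma. The carcinoma minus high-risk difference was 1.16 ± 0.56 (SE; limma, adjusted p = 0.474), with a 95% interval from 0.00 to 2.31, and did not pass the threshold after adjustment. It was 0.28 with the array set as a block, 0.39 within set D and 0.63 with quantile normalization, and the 4 high-risk papillomas of set E averaged -2.31.

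Lgals9, the gene of galectin-9, known for its action on T cells, was lowest on average in high-risk papillomas. These ran from -2.13 to 0.28 (n = 8) with a median of -0.79, low-risk papillomas from -1.67 to 1.55 with a median of -0.15, carcinomas (n = 5) from -0.80 to 0.53 with a median of -0.23, and normal skins from -0.55 to 0.37 with a median of -0.07. Below every normal skin lay 5 of the 8 high-risk papillomas. The difference was -0.77 ± 0.39 (SE; limma, adjusted p = 0.268), and the high-risk papillomas in sets C and E averaged -0.04 (n = 2) and -1.31 (n = 4).

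**Figure D2:**
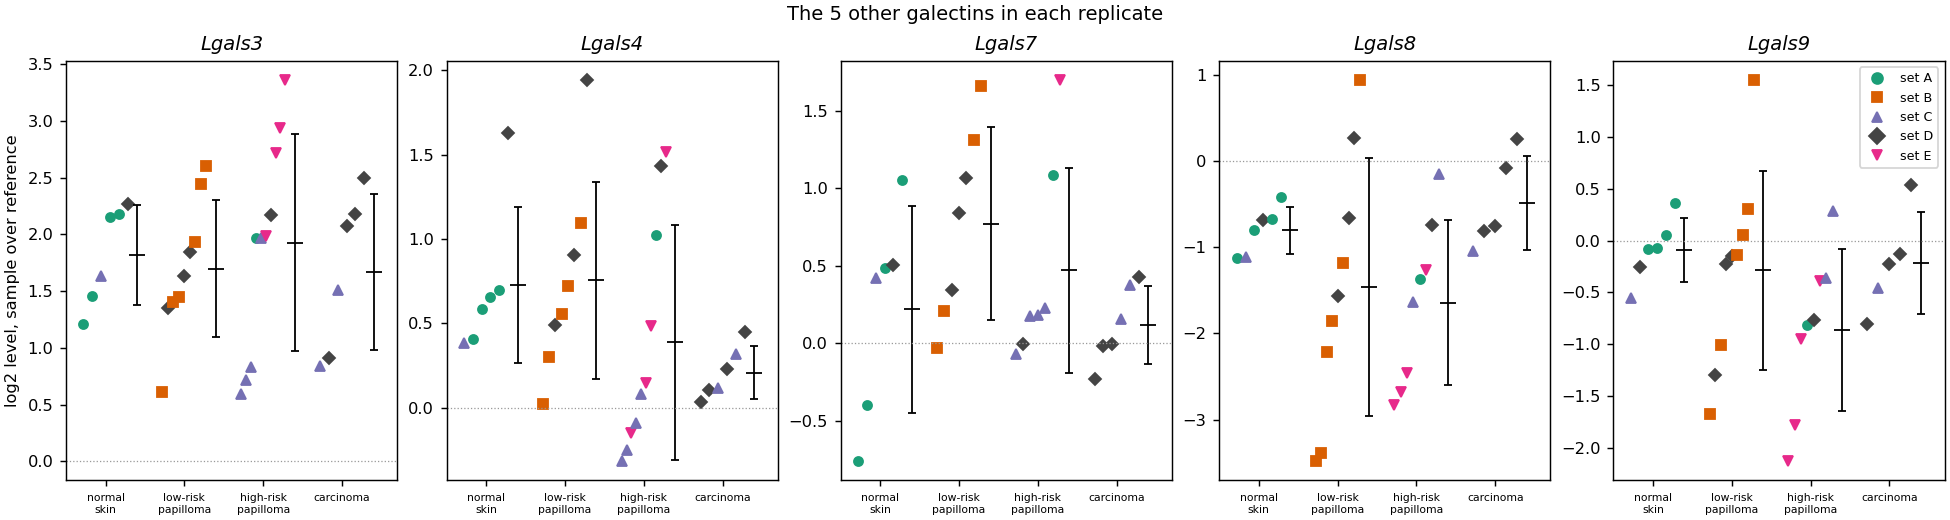
Log2 level of Lgals3, Lgals4, Lgals7, Lgals8 and Lgals9, sample over reference, in each replicate of the 4 groups, each panel on its own scale; colour and shape give the array set and the bar is the mean ± SD. The groups overlap in every panel, Lgals3 is above 0 in 31 of 31 replicates, and low-risk papillomas spread from -3.48 to 0.94 in Lgals8.

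Over the 6 comparisons, counts of galectins past the threshold were small, and nothing is read from those with low-risk papillomas, which rest on the samples whose results chose the family. Limma with Benjamini-Hochberg adjustment over 18904 probes called 1 of 7 galectins between high-risk and low-risk papillomas, where 0.667% of all probes were called, and 2 of 7 between carcinomas and low-risk papillomas, against 1.12%. It called 1 of 7 between low-risk papillomas and normal skin, against 7.55%, that one again being Lgals2. It called 0 of 7 between carcinomas and high-risk papillomas, against 0.0423%, 0 of 7 between high-risk papillomas and normal skin, against 5.01%, and 0 of 7 between carcinomas and normal skin, against 1.16%. At an unadjusted p under 0.05 these last 3 comparisons had 2, 0 and 1 of the 7 galectins, where 10.5%, 19.7% and 11.3% of all probes had one.

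The median difference of the 7 galectins ran from -0.30 between high-risk and low-risk papillomas to -0.03 between carcinomas and low-risk papillomas, beside medians of all probes between -0.02 and 0.02. Of the 42 pairs of galectin and comparison, 35 had an unadjusted p of 0.05 or more. Their differences ran from -0.84 to 0.97 with SE from 0.26 to 0.60, and their 95% intervals reached from -1.93 to 2.10, so differences of over 1 log2 unit lie within the intervals of some of them. The 3 comparisons with low-risk papillomas share those samples, as those with each other group share theirs, and they are not independent of each other.

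The galectins did not vary together as a family. Over the replicates measured for both, 11 of the 21 pairs of members had a Pearson r above 0 and 5 had an r over 0.5 in size. Lgals1 and Lgals2 ran opposite to each other, with r = -0.67 and Spearman's rho = -0.58 over 30 replicates, r = -0.70 after the means of the array sets were removed, and r = -0.63 without the 2 replicates farthest from the Lgals1 median. The family was chosen by the levels of this pair in the same low-risk papillomas, so nothing is read from its r. All of these values still hold the group differences. Lgals3 and Lgals9 ran opposite as well, with r = -0.74 and rho = -0.63 over 28 replicates, -0.67 within array sets and -0.67 without the 2 farthest in Lgals3. Lgals8 and Lgals9 ran together, with r = 0.59 and rho = 0.47 over 25 replicates, and 0.64 within array sets. The points share the group differences, the arrays and the reference RNA, and these correlations are descriptions.

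The genes whose pattern over the replicates was most like a galectin's were found among all named genes by Pearson r over at least 22 shared replicates. For Lgals2 these were Calcoco1, a coiled-coil coactivator, with r = 0.93 over 31 replicates and 0.88 after the means of the array sets were removed, Tia1, an RNA-binding protein of stress granules, with r = 0.91 and 0.84, and Prrt1 with r = 0.91 and 0.84. For Lgals3 they were the kinase gene Map3k1 (r = 0.87), Anxa8, an annexin of stratified epithelium (r = 0.83), and Col17a1, a hemidesmosome collagen of basal keratinocytes (r = 0.83). Within array sets these were 0.85, 0.80 and 0.72.

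For Lgals1 the nearest patterns were less close: 4930527J03Rik (r = 0.77), Pih1d1 (r = 0.75) and Sod3, an extracellular superoxide dismutase (r = 0.75), with 0.68, 0.79 and 0.73 within array sets. For Lgals9 they were Disp1 (r = 0.90), an immunoglobulin kappa variable segment (r = 0.85), and Hoxd3os1 (r = 0.85), and for Lgals8 they were Angel2, Slc22a8 and Trp53bp1, each with r = 0.87. For Lgals7 they were Lrrfip1 (r = 0.80), Snord55 (r = 0.77) and Mki67 (r = 0.75), and for Lgals4 Mphosph6 (r = 0.78), 4930517M08Rik (r = 0.75) and Pde6a (r = 0.73). The points share depth, scale and array set, and each gene was picked as the highest of many.

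Galectins act through the sugars that others make, so the enzymes of N-glycan branching and galactose chains were followed in a list of 23, of which 20 were tested. Limma called 1 of the 20 between high-risk papillomas and normal skin, a share near the 5.01% of all probes. It called 0 in the other 5 comparisons, where between 1 and 4 of the 20 had an unadjusted p under 0.05, beside 10.5% to 23.4% of all probes. Mgat1, which starts the branching of complex N-glycans, was measured in 6 of the 10 high-risk papillomas and 5 of the 6 normal skins. It ran from 1.40 to 3.58 in those papillomas and from 0.74 to 1.37 in those skins, and rose by 1.82 ± 0.40 (SE; limma, adjusted p = 0.0104). It was 1.24 ± 0.18 (SD, n = 4) in carcinomas, a difference from high-risk papillomas of -1.50 (limma, adjusted p = 0.210). With the array set as a block that difference was -0.63 and the rise over normal skin was 0.97 (limma, adjusted p = 0.522), and by scale normalization its adjusted p was 0.0703.

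Mgat3, which adds the bisecting sugar that blocks branching, had the smallest p of the list between carcinomas and low-risk papillomas. On the probe kept for the gene it was at 0.17 ± 0.30 (SD, n = 5) in carcinomas and ran from -8.44 to 0.58 in low-risk papillomas. That is a difference of 2.57 (limma, adjusted p = 0.131). The difference was 1.5 with the mean of its probes and 1.08 with the array set as a block. Within set D and in a fit of only the 2 groups the kept probe was picked anew, and the differences were 0.28 and 0.47. Leaving out other groups does not change the group means of a probe, so the 0.47 is from another Mgat3 probe, and the probes disagreed. The difference passed with quantile normalization (limma, adjusted p = 0.0460), with array weights and without low-risk papilloma 6. B4galt2, a galactosyltransferase, differed there by 0.85 (limma, adjusted p = 0.250), by 0.16 with the array set as a block, and passed at 1.15 without low-risk papilloma 6 (limma, adjusted p = 0.0420). Median differences of the 20 enzymes ran from 0.05 to 0.22 over the 6 comparisons.

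Proteins taken as partners of galectins, most of them glycoproteins and receptors, made a list of 37, with 34 tested. Limma called 1 of the 34 between high-risk and low-risk papillomas (0.667% of all probes), 2 between low-risk papillomas and normal skin (7.55% of all probes) and 4 between high-risk papillomas and normal skin (5.01% of all probes). It called 0 in the 3 comparisons of carcinomas, with a lowest adjusted p of 0.0638. There 3, 6 and 7 of the 34 had an unadjusted p under 0.05 against low-risk papillomas, high-risk papillomas and normal skin, beside 16.1%, 10.5% and 11.3% of all probes. Their median differences ran from 0.01 to 0.18 over the 6 comparisons.

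Lag3, an inhibitory T cell receptor that binds galectin-3, was lower in high-risk papillomas. It ran from 0.05 to 3.21 with a median of 0.48 in high-risk papillomas and from 1.23 to 3.58 with a median of 2.25 in low-risk papillomas, ranges that overlapped, and fell by 1.55 ± 0.37 (SE; limma, adjusted p = 0.0437). The call ended in 13 of 19 fits that left out 1 replicate, and within array set D the difference was 0.68, with the 1 high-risk papilloma there. With the array set as a block it was -0.42 (limma, adjusted p = 1.0), and with quantile and scale normalization -0.89 and -0.92, without a call. The mean of 7 T cell markers was -0.07 in high-risk papillomas, from -0.42 to 0.33, and 0.33 in low-risk papillomas, from -0.11 to 0.78, and their part was not tested.

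Lama5, a laminin chain of the basement membrane, fell in both kinds of papilloma. Normal skins (n = 5) ran from 0.91 to 2.07, low-risk papillomas (n = 9) from -0.48 to 1.29 and high-risk papillomas (n = 8) from -0.46 to 0.73. The differences were -1.51 ± 0.29 (SE; limma, adjusted p = 0.00212) and -1.58 ± 0.29 (SE; limma, adjusted p = 0.00263). Carcinomas were -1.21 from normal skin (limma, adjusted p = 0.0638), which passed in 5 of 17 other settings: quantile (0.0135 by limma) and scale normalization (0.0248), only the 2 groups, array weights, and without normal skin 1 and carcinoma 6 (0.0386). With the array set as a block the papilloma differences were -0.68 and -1.17, with adjusted p = 0.786 and 0.132 by limma.

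Of the others called, Egfr, the epidermal growth factor receptor held at the surface by galectin-3, rose by 0.92 ± 0.23 (SE; limma, adjusted p = 0.0170) in high-risk papillomas over normal skin. Its levels ran from 1.21 to 2.73 in the 10 papillomas and from 0.81 to 1.53 in the 6 skins. Mcam, an adhesion molecule of endothelium and muscle, rose by 1.45 ± 0.36 (SE; limma, adjusted p = 0.0180), and Muc1, a cell surface mucin, by 1.31 ± 0.34 (SE; limma, adjusted p = 0.0273). Spn, the sialomucin CD43 of leukocytes, fell by 1.03 ± 0.28 (SE; limma, adjusted p = 0.0219) in low-risk papillomas against normal skin. With the array set as a block none of these 4 passed, at differences of 0.59, 0.46, 1.36 and -0.69 with limma's adjusted p = 0.357, 0.701, 0.296 and 0.878, and with the range of database number as a block the Muc1 difference was 0.42 (limma, adjusted p = 0.556). Leaving out 1 replicate ended the call of Egfr in 2 of 16 fits, of Mcam in 2 of 16, of Muc1 in 8 of 16 and of Spn in 2 of 15.

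Beside Lama5 against normal skin, the members of the list with the smallest p in the carcinoma comparisons did not pass either. They were Krt8, a simple-epithelium keratin, against low-risk papillomas (2.15; limma, adjusted p = 0.215), Egfr and Lamp2, a lysosomal membrane glycoprotein, against high-risk papillomas (-0.76 and 1.35; limma, adjusted p = 0.215 and 0.230), and Bsg and Itgam against normal skin (-0.83 and 0.97; limma, adjusted p = 0.225 and 0.274). The Krt8 difference was 1.33 without low-risk papilloma 8, 0.99 with quantile normalization and 0.39 with the array set as a block. That block also took Egfr to -0.29, Lamp2 to -0.00447 and Itgam to 0.61, while Bsg passed with quantile (limma, adjusted p = 0.0352) and scale normalization (limma, adjusted p = 0.0376) and, like Itgam, with array weights.

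Other genes with a galectin name were measured on the first design. Lgals12, a galectin of adipocytes, ran from -0.91 to -0.13 in normal skin and from -0.48 to 0.58 in high-risk papillomas, and rose by 0.70 ± 0.21 (SE; limma, adjusted p = 0.0478), a call that held in 4 of 16 fits that left out 1 replicate. The Lgals12 difference was 0.35 (limma, adjusted p = 0.664) when the array set was a block, 0.21 with blocks by range of database number, and within array sets A and C 0.27 and 0.11. Lgalsl, a galectin-like gene, was above 0 in 30 of 31 replicates, with means of 2.44 in normal skin and 2.42 and 1.63 in low-risk and high-risk papillomas, and 1.09 in carcinomas. Its carcinoma minus low-risk difference was -1.33 (limma, adjusted p = 0.243). Lgals3bp, a secreted glycoprotein that binds galectin-3, was above 0 in 3 of 25 replicates.

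**Figure D3:**
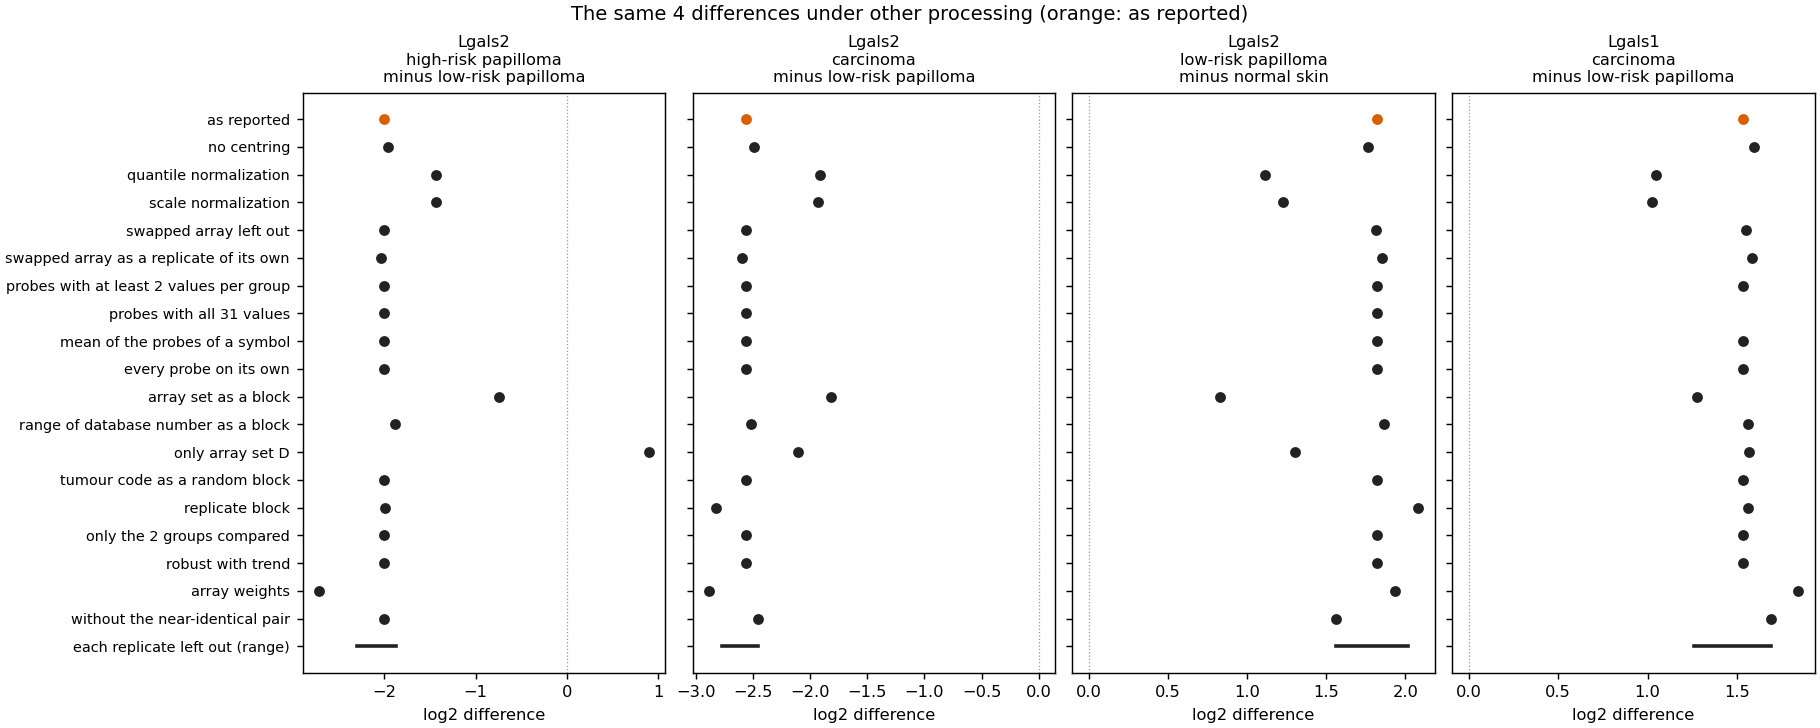
Log2 difference (horizontal axis) of 3 Lgals2 comparisons and 1 Lgals1 comparison under the reported fit (orange) and each other way of processing (black), with the range over fits that left out 1 replicate as a bar. The Lgals2 difference between high-risk and low-risk papillomas moves from -2.0 to -0.74 with the array set as a block and to 0.90 in array set D alone; the other 3 keep their sign in every setting drawn.

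The 10 papillomas of unknown risk, on the second design, had levels of their own that are not set against the first design, since design and group cannot be told apart. Lgals3 was above the reference in 10 of 10, from 2.46 to 3.76 with a median of 3.18. Lgals2 ran from -1.37 to 0.17 with a median of -0.28 and was above 0 in 2 of 9 measured, and no papilloma stood apart as high. Lgals1 ran from -2.73 to 0.62 with a median of -1.03 and was above 0 in 1 of 10.

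Lgals7 had a pair of probes on this design, which disagreed. The first ran from 3.33 to 6.95 with a median of 5.44 and was above 0 in 10 of 10 papillomas, while the second ran from -1.47 to 1.94 with a median of -0.44 and was above 0 in 4 of 10. The first read 2.92 to 8.00 higher than the second on every one of the 10 arrays. Both are annotated to the same transcript of the gene, and probe sequences were not used here, so which of them reads galectin-7 was not tested.

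Lgals4 gave medians of 0.66 and 0.70 by its 2 probes, each above 0 in 8 of 10. One of these also carries the transcript record of a near-identical copy, and the copies cannot be told apart by it. Lgals8 ran from -1.13 to 0.80 with a median of -0.49. Lgals9 had 3 probes with medians of -0.64, -0.56 and -0.01, the third of which reached 3.91 in 1 papilloma, where the highest values of the other 2 were 1.68 and 0.44. Lgals3bp was below 0 in all 10, with a median of -2.49.

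**Figure D4:**
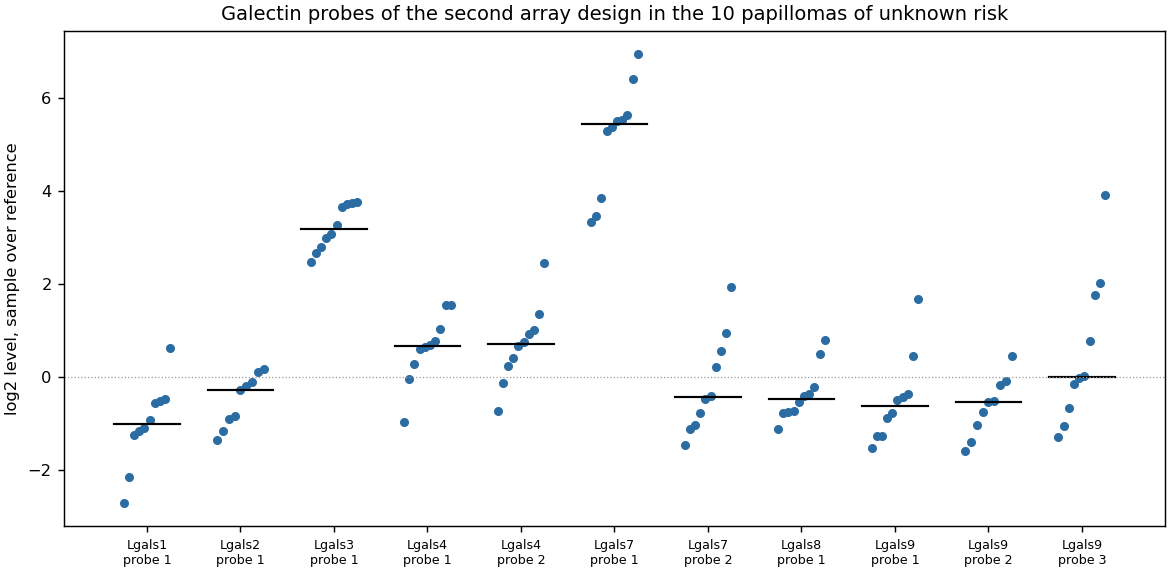
Log2 level, sample over reference, of each of the 11 galectin probes of the second array design in the 10 papillomas of unknown risk (points) with the median (line). The first Lgals7 probe lies between 3.33 and 6.95 and the second between -1.47 and 1.94 in the same papillomas, and Lgals3 lies between 2.46 and 3.76.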

How the data were processed

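RNA of mouse skin and skin tumours was measured on 2-colour arrays with sample and universal reference RNA in the 2 channels, labelled by aminoallyl coupling, per the labels' protocols. The deposited values are log2 ratios made by the authors. The base was inferred from their range, and the scanner software, background correction and normalization are not given in the sources used here. Signs were changed on all arrays but the swapped one, whose r with the other array of its extract was 0.306 over all probes, and medians of arrays were set to 0. The fit took probes with values in 70% of the 31 replicates and in no fewer than 3 per group, and kept 1 probe per symbol (18904 probes, 13465 named). The 4 groups were fitted together with limma 3.58.1 in R 4.3.3, with Benjamini-Hochberg adjustment over all probes and a threshold of 0.05. Tables were made with pandas 2.3.3. The fit was tested on simulated data with independent noise and no array sets, so that test does not bear on effects of the array sets. Symbols come from the platform's annotation, which gave 16076 first-design probes a single symbol, 288 more than 1 and 5633 no symbol.

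The members, the partner and marker lists, and the rule for naming genes were chosen with earlier results of these data known. The rule named all 7 members, partners that were called or had the 3 smallest p of a comparison, the 3 nearest patterns of each member, and other galectin-named genes. Alternatives were other scalings, filters, probe summaries, treatments of the swapped array, blocks, fits and left-out samples. Those for partner genes were chosen after seeing the data.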

Additional observations from a re-analysis of the deposited data

Results flagged for a closer look

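Among 28 groups of a galectin tested for a highest or lowest sample far from the others, 3 had one. Chance alone gives this in about 1 in 20 groups. Lgals1 in carcinoma 3 was at 1.03, with the next carcinoma at -0.32. Lgals2 in high-risk papilloma 5 was at 3.72, with the next high-risk papilloma at 1.89. Lgals4 in normal skin 2 was at 1.63, with the next normal skin at 0.70. Carcinoma 3, high-risk papilloma 5 and normal skin 2 all lie in array set D.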

How the results depend on the processing

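The 1 galectin called between high-risk and low-risk papillomas became 0 with quantile or scale normalization, with the array set or the range of database number as a block, within array set D, and in a fit of only the 2 groups. Over all probes these settings took the 126 calls to 68 and 38, to 0 and 51, to 0, and to 0. The 2 called between carcinomas and low-risk papillomas became 1 with quantile normalization, with probes that had all 31 values, with the replicate block and in a fit of only the 2 groups. They became 0 with scale normalization, within array set D and with the array set as a block. Over all probes the 212 calls became 173, 164, 167 and 171, and 105, 15 and 1. Lgals1 had 30 values, so the filter for all 31 values left it out untested, and that count of 1 says nothing about its call. The 1 called between low-risk papillomas and normal skin became 0 with both normalizations, within array set D and with the array set as a block, where the 1427 calls over all probes became 1741 and 1436, 56 and 5. Array weights raised the count from 0 to 1 between high-risk papillomas and normal skin and from 0 to 2 between carcinomas and normal skin, while calls over all probes went from 948 to 3961 and from 219 to 3454. The cause was not tested. Leaving out 1 replicate gave counts of 1 to 2 for carcinomas against low-risk papillomas, with 1 without carcinoma 2, 3 or 4 or low-risk papilloma 5, and changed no other count.

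Within array set D the Lgals2 difference between high-risk and low-risk papillomas reversed to 0.90, and the Lag3 difference to 0.68. Lamp2 between carcinomas and high-risk papillomas reversed to -0.00447 with the array set as a block. Within array set C, Mcam between high-risk papillomas and normal skin reversed to -0.27 and Itgam between carcinomas and normal skin to -0.16. Lgals2 kept its direction between carcinomas and low-risk papillomas, and between low-risk papillomas and normal skin, in all 18 settings run for each, from -2.88 to -1.82 and from 0.83 to 2.08. Lgals1 kept its own between carcinomas and low-risk papillomas in 17 of 17, from 1.03 to 1.84. Of the 35 other pairs of galectin and comparison, 23 changed sign in some setting, 10 of them when 1 replicate was left out, and 2 were called in some setting.

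Samples of different groups with equal replicate numbers showed no sign of pairing. The median correlation of their deviations from the group means was -0.0103 (37 pairs), against 0.00975 for unequal numbers (317 pairs). Array-set differences were left in these deviations, so a pairing could go unseen. With the replicate block the Lgals1 difference of carcinomas from low-risk papillomas was 1.56.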
